A study of Rattus norvegicus with 12 samples.

Results

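Livers of rats on a high fat diet alone (HFD) were set against livers of rats that received SAMC on a normal diet (Control+SAMC). SAMC stands for S-allylmercaptocysteine, a sulfur amino acid derivative formed when garlic is aged. The comparison took 6 of the 12 RNA-seq libraries of the series, 3 a side, and they were chosen by their treatment labels: HFD replicates 2, 3 and 4, and Control+SAMC replicates 1, 2 and 3. The other 6 libraries, from rats given SAMC with the high fat diet (HFD+SAMC, replicates 1, 2 and 3) and from rats on the normal diet alone (Control, replicates 1, 2 and 3), were used for a comparison that shares no library with the first. Both comparisons share 1 estimate of the spread from all 12 libraries, so their calls are not independent. All rats were Sprague Dawley. Strain and tissue are given, while dose, duration of feeding, sex, age and the identity of the animals are not stated, so p-values reflect only how these samples vary, and that variation may be technical. Diet and SAMC differ at once between HFD and Control+SAMC, and in this comparison their parts cannot be told apart.

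Some background helps to read the genes. The liver makes cholesterol from acetyl-CoA through the mevalonate pathway, and its enzymes are transcribed together under SREBP-2, a membrane-bound transcription factor that is released when sterols run low in the endoplasmic reticulum and is held back by INSIG proteins when sterols are plentiful. Nrf2, the product of Nfe2l2, is a transcription factor freed by electrophiles such as organosulfur compounds, and it drives glutathione S-transferases, aldo-keto reductases and NADPH-producing enzymes through antioxidant response elements. PPARα is a fatty acid sensor that drives fatty acid oxidation in liver.

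Between HFD and Control+SAMC livers, 58 of the 15916 genes tested (0.364%) passed an adjusted p of 0.05. Of these, 23 (0.145% of the genes tested) were higher and 35 (0.22%) were lower in HFD livers. The lower genes included enzymes of cholesterol synthesis with Insig1, and Nrf2 targets such as Akr7a3 and Gstp1. The higher genes included Acnat2, Sult1c2, Pcdh7, Paqr7 and Cyp3a18, the class II antigen gene RT1-Da and the PPARα target Vnn1; these genes averaged 1 log2 CPM or more and have an established symbol, and Slc5a8, RGD1305184 and Nim1k, scarce or provisionally named, had larger fold changes. All 58 had HFD and Control+SAMC libraries that did not overlap in CPM (counts per 1e+06, with library sizes scaled by TMM), which was so for 8.8% of all genes in the higher direction and 8.33% in the lower. At an unadjusted p under 0.05, 2064 genes (13%) stood apart, 7.07% higher and 5.9% lower. Of the 58 genes, 55 code for proteins.

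**Figure D1:**
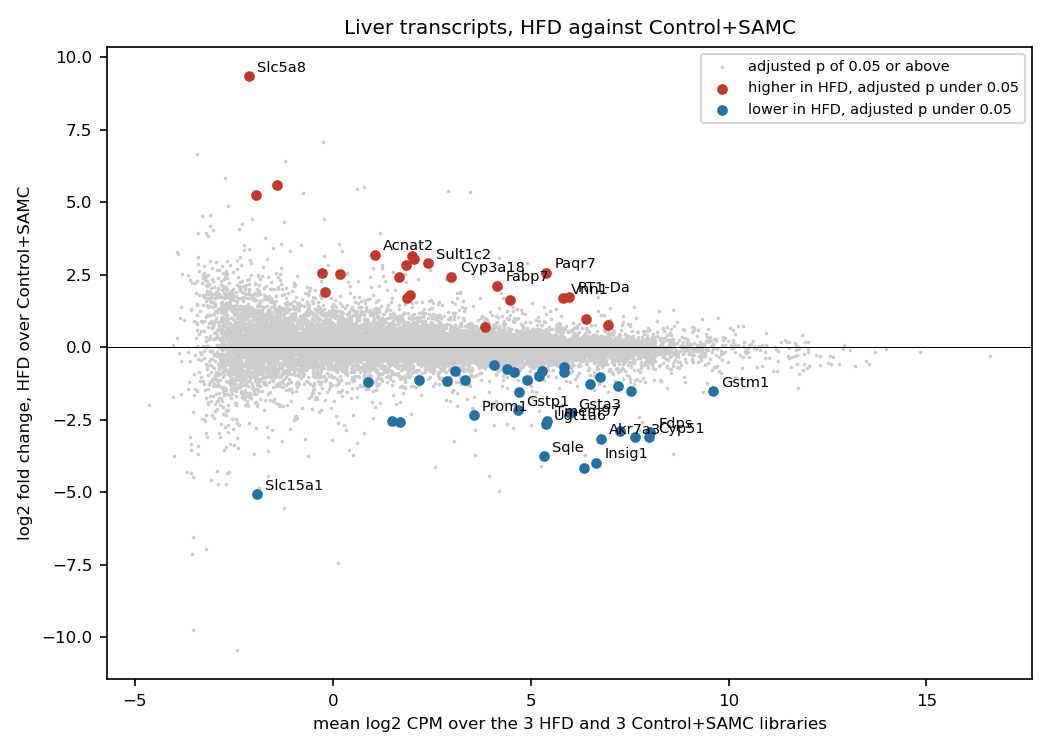
Log2 fold change of HFD over Control+SAMC livers (vertical axis) against the mean log2 CPM over the 6 libraries (horizontal axis) for the 15916 genes tested. Red points are the 23 genes higher and blue points the 35 genes lower in HFD at an adjusted p under 0.05; the lower ones reach further down at high expression than the higher ones reach up.

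How many genes passed depended on single libraries. The count was 10 without HFD replicate 2, 5 without HFD replicate 3, 13 without Control+SAMC replicate 1, 8 without Control+SAMC replicate 2 and 34 without Control+SAMC replicate 3. It was 28, 30 and 38 without HFD+SAMC replicate 1, 2 or 3. These libraries are in neither group compared, but they enter the shared estimate of the spread, the filter on low counts and the scaling. Without them 16342, 16363 and 16327 genes were tested. Without Control replicate 1 it was 92, and without Control replicate 2 it was 140. Acnat2, Akr7a3, Gstp1, Tmem97 and the long noncoding RNA LOC103693474 kept an adjusted p under 0.05 in each of the 19 alternative settings tried. The other 53 genes lost it in at least 1 of them.

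Library totals ran between 45680738 and 61937544 counts over the 12 libraries. HFD and Control+SAMC lay further apart than any other pair of groups, but by little. The mean root-mean-square log2 difference between their libraries was 0.875, and the other pairs of groups lay between 0.808 and 0.855. Within groups it was 0.746 in HFD, 0.806 in Control+SAMC, 0.695 in HFD+SAMC and 0.825 in Control. Fibrinogen genes, which hepatocytes secrete at high levels in the acute phase, divided the libraries in a way the groups do not follow. Fga stood at 3822, 3378 and 14057 CPM in HFD livers and at 3407, 11358 and 17184 CPM in Control+SAMC livers, so HFD replicates 2 and 3 and Control+SAMC replicate 1 were low. Control replicate 2 was low as well, at 3588 CPM. With these 4 libraries left out, 31 genes passed the threshold, 14 of them among the 58; the lone HFD library is then assumed to vary like the other groups. Hepatocyte markers were abundant in all 6 libraries, with 130685 to 174210 CPM summed over 12 markers in HFD and 160144 to 229346 CPM in Control+SAMC. Markers of other tissues were present in part. Adipocyte markers summed to 122 to 187 CPM in HFD and 82.3 to 193 CPM in Control+SAMC, most of it Cidec, with Adipoq, Lep and Retn at 0 in all 6. Pancreatic acinar markers summed to 6.85 to 60.9 CPM in HFD and 82.5 to 202 CPM in Control+SAMC, without overlap. Most of that was Cpa1 (log2 fold change -2.21 ± 1.20 (SE), adjusted p = 0.482); the other 8 summed to 2.56 to 5.50 CPM in HFD and 1.34 to 2.45 CPM in Control+SAMC, with Prss1, Pnlip and Amy2a3 at 0. Skeletal muscle markers summed to at most 1.42 CPM in HFD and 1.40 CPM in Control+SAMC, with Myh4 and Mb at 0. Erythroid markers summed to 356 to 495 CPM in HFD and 477 to 1829 CPM in Control+SAMC. All 9 tested were below 0 (median -1.08), against 49.8% of all genes, and none passed the threshold. Mast cell markers summed to 10.3 to 164 CPM in HFD and 7.05 to 9.59 CPM in Control+SAMC, without overlap. Of the 4 tested, 1 was above 0 and 3 below. The part of these tissues and cells in the results was not tested.

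HFD livers held less RNA of cholesterol genes than Control+SAMC livers. Of the 26 members tested of the list for synthesis and uptake, 8 passed the threshold, all lower, and the median log2 fold change of the list was -2.81, beside 0.0015 over all genes tested. All 26 had lower CPM in every HFD library than in any Control+SAMC library, which was so for 8.33% of all genes. All 26 also had an unadjusted p under 0.05, which 5.9% of all genes had in that direction. Of all genes tested, 0.22% passed the threshold in that direction. In bulk liver, fewer cells of a type and less RNA per cell cannot be told apart.

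Among regulators of the pathway, Insig1, the sterol-regulated anchor of SREBP-2, had 29.9, 26.0 and 20.5 CPM in HFD livers and 463, 388 and 353 CPM in Control+SAMC livers (log2 fold change -3.98 ± 0.67 (SE), adjusted p = 0.0439). Every Control+SAMC library lay far above every HFD library. Tmem97, a sterol-responsive membrane protein also known as the sigma-2 receptor, had the smallest adjusted p of the list. It had 19.8, 15.8 and 17.8 CPM in HFD livers and 115, 94.7 and 98.8 CPM in Control+SAMC livers, with replicates close together on both sides (log2 fold change -2.53 ± 0.20, adjusted p = 0.000207).

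Enzymes along the chain moved in the same direction. Fdps makes farnesyl diphosphate, the branch point to sterols and prenyl groups, and had 96.2, 126 and 65.2 CPM in HFD livers against 821, 671 and 700 CPM in Control+SAMC livers (log2 fold change -2.93 ± 0.47, adjusted p = 0.0306). Sqle, which oxidises squalene in the first oxygen-dependent step, had 11.9, 15.4 and 6.72 CPM in HFD livers and 183, 130 and 141 CPM in Control+SAMC livers (log2 fold change -3.74 ± 0.62, adjusted p = 0.0439). Each Control+SAMC library was far above each HFD library for both enzymes.

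Later steps showed the same separation. Cyp51, the lanosterol demethylase, averaged 88.7 ± 26.3 CPM in HFD livers and 761 ± 46.8 CPM in Control+SAMC livers (SD, n = 3 each; log2 fold change -3.10 ± 0.43, adjusted p = 0.0161). Dhcr7, the last enzyme of one branch of the pathway, averaged 58.1 ± 26.0 CPM in HFD and 432 ± 117 CPM in Control+SAMC (log2 fold change -2.89 ± 0.48, adjusted p = 0.0380). Insig1 overlaps Kmt2c on the same strand and Dhcr7 overlaps Cttn, which together with an unstated strand setting leaves some reads of unsure origin; the partners had fewer counts than either gene.

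Other members did not pass. Hmgcs1, an early enzyme of the mevalonate pathway, had 110, 165 and 63.9 CPM in HFD livers and 1704, 1241 and 1371 CPM in Control+SAMC livers (log2 fold change -3.67 ± 0.77, adjusted p = 0.0860). Srebf2, the gene of SREBP-2 itself, had a log2 fold change of -1.28 ± 0.25 (adjusted p = 0.0509). The groups did not overlap for either gene.

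The number of cholesterol genes past the threshold moved with the libraries in the fit, while the median of the list stayed between -3.20 and -2.61 in every setting. Of the 8 genes, 1 remained without HFD replicate 2, HFD replicate 3, Control+SAMC replicate 1 or Control+SAMC replicate 2, 2 without HFD replicate 4 and 3 without Control+SAMC replicate 3. Without HFD+SAMC replicate 1, 2 or 3, 4, 4 and 5 remained, and without Control replicate 3, 7 remained. The Control libraries spread widely for these genes. Insig1 stood at 81.4, 536 and 93.9 CPM and Fdps at 219, 897 and 329 CPM in Control replicates 1, 2 and 3, so that replicate 2 lay above every Control+SAMC library. Without Control replicate 2, 24 of the 26 members passed in HFD against Control+SAMC, and without Control replicate 1, 17 did. With the 4 low-fibrinogen libraries left out, 15 of the 26 passed, 7 of them among the 8, and the median was -3.04.

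Promoter sequences are given for the cholesterol genes past the threshold that hold a CCAAT box, because NF-Y, the factor that binds this box, works beside SREBP at sterol-regulated promoters. RefSeq promoters (assembly GRCr8; 250 bases before to 50 after the start site) were found for 18 of the 26 members. CCAAT, searched on both strands, occurred in 15 of these 18 (83.3%), against 37.5% of the 33469 promoters in the table. Among the 8, it occurred in 3 of the 5 with a promoter. For all genes past the threshold, CCAAT occurred in 13 of 24 promoters of the lower genes and 9 of 18 of the higher genes. For the Nrf2 targets tested it occurred in 11 of 30. A sterol regulatory element core, written as TCACNCCAC, was searched on both strands. It occurred in none of the 18 promoters of the cholesterol list and in 1.12% of all promoters. That says only that these letters are not in these windows. The 250 bases before the start site are shown 5′ to 3′ on the gene's strand, with CCAAT or its reverse complement in capitals. Tmem97 has it 212 and 114 bases before the start, Fdps 130 and 85 bases before it, and Insig1 193 bases before it.
Tmem97 (chr10:63945360-63945609, minus strand): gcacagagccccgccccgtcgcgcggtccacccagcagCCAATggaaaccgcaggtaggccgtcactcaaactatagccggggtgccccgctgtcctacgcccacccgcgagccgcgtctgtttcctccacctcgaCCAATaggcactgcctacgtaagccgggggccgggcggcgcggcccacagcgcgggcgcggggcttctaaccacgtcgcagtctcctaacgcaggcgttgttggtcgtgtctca
Fdps (chr2:176804817-176805066, minus strand): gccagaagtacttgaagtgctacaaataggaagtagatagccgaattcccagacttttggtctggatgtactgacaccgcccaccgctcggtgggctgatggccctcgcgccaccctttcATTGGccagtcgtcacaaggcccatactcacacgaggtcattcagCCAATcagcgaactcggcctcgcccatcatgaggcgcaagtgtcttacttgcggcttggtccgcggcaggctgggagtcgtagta
Insig1 (chr4:8057770-8058019, minus strand): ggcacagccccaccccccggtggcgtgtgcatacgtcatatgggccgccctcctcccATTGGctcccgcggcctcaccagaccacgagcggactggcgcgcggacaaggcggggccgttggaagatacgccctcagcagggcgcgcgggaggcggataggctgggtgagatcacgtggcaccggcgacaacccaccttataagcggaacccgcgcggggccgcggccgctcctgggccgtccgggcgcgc

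**Figure D2:**
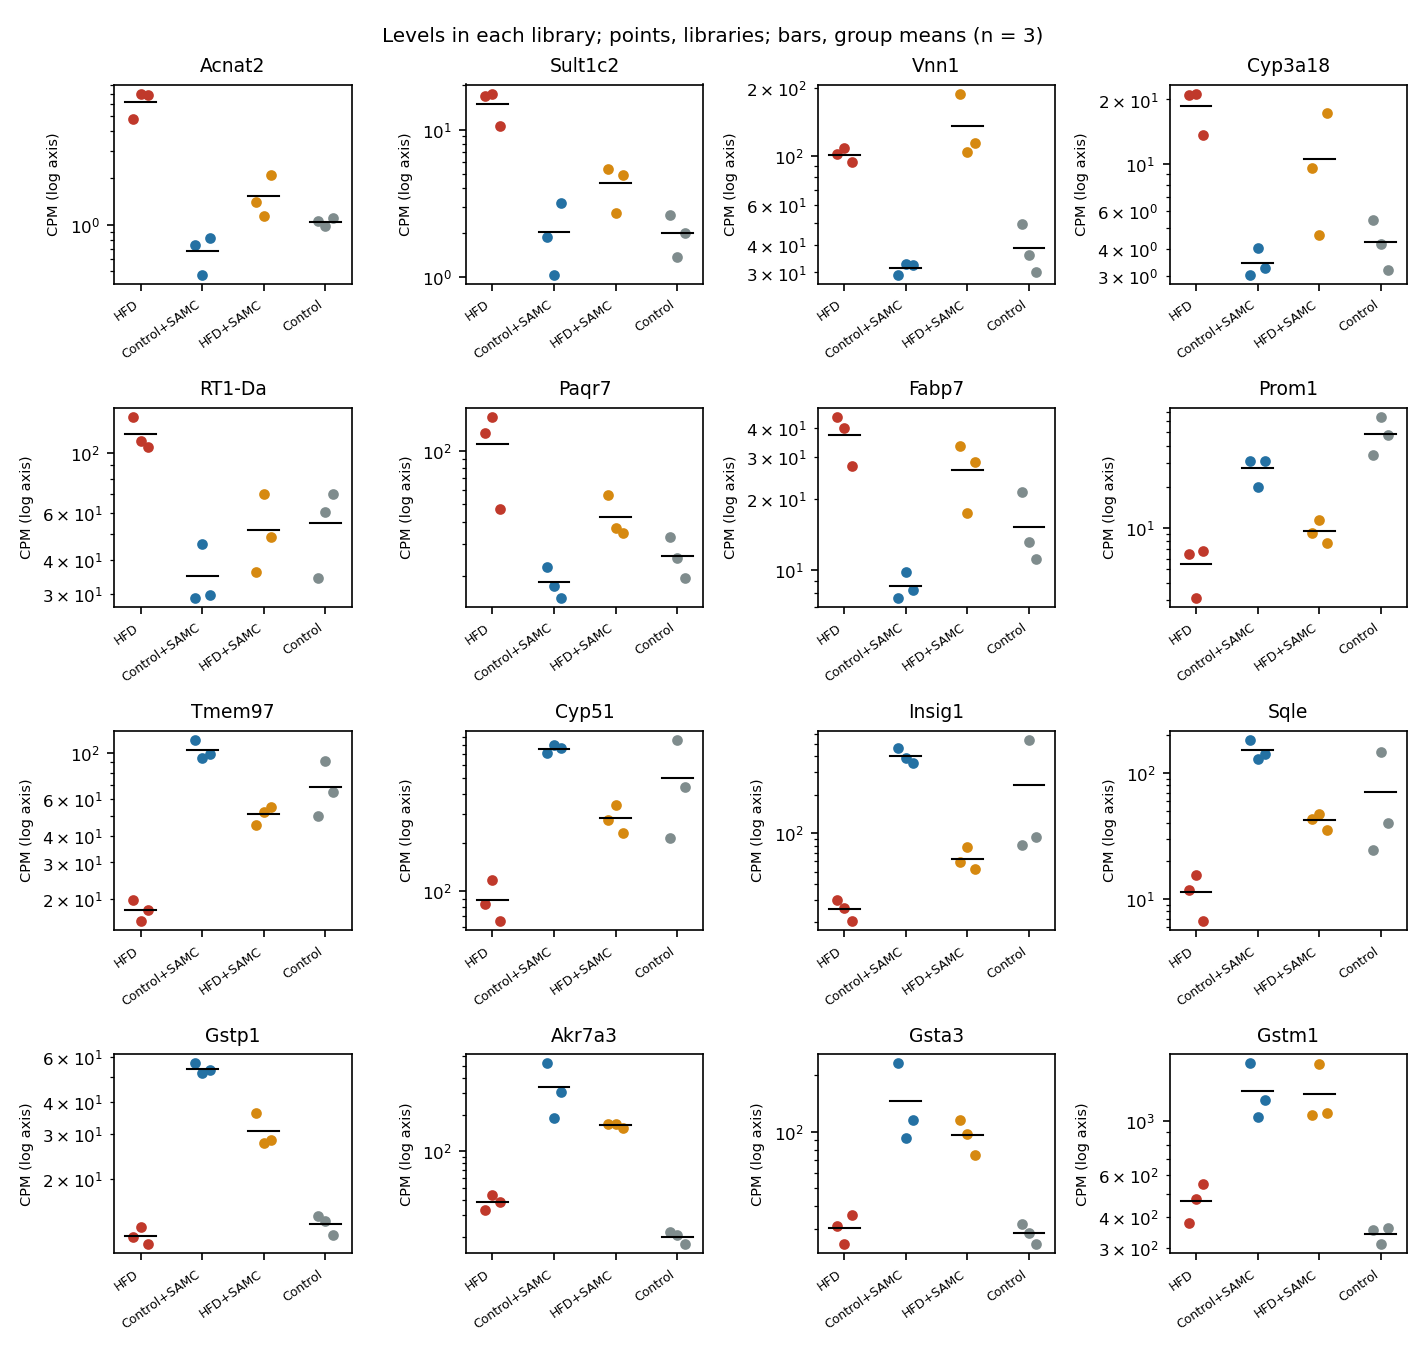
CPM per library on a log axis for 16 genes, in the order HFD, Control+SAMC, HFD+SAMC and Control, with bars at the group means (n = 3 libraries each). Insig1 and the sterol enzymes are low in HFD and high in Control+SAMC with a wide spread in Control, while Akr7a3, Gstp1 and Gstm1 are high in the groups given SAMC.

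Fatty acid synthesis genes lay lower too, though 1 of the 27 tested passed the threshold. That gene was Slc25a1, the carrier that exports citrate from mitochondria for acetyl-CoA supply, with 68.0, 78.9 and 78.2 CPM in HFD livers and 161, 145 and 152 CPM in Control+SAMC livers (log2 fold change -1.02 ± 0.18, adjusted p = 0.0358). Its call was lost without any of the 6 libraries compared (adjusted p between 0.0692 and 0.144) and without HFD+SAMC replicate 1 (0.0662) or 2 (0.0548). The call of Slc25a1 was also lost with the replicate block (0.104) and with the low-fibrinogen libraries left out, a fit that keeps a lone HFD library. The median of the list was -0.88, with 24 of 27 below 0, against 49.8% of all genes. Without overlap in the lower direction were 13 of 27, against 8.33% of all genes. Fads1, the delta-5 desaturase, had 112, 112 and 60.7 CPM in HFD livers and 612, 522 and 375 CPM in Control+SAMC livers (log2 fold change -2.41 ± 0.44, adjusted p = 0.0501). Fasn, the fatty acid synthase, had 70.7, 156 and 84.0 CPM in HFD livers and 877, 804 and 710 CPM in Control+SAMC livers (log2 fold change -2.94 ± 0.62, adjusted p = 0.0878). For Scd, the stearoyl-CoA desaturase, the value was -4.97 ± 1.09 (adjusted p = 0.106), from 0.665, 2.40 and 10.1 CPM in HFD and 105, 99.5 and 208 CPM in Control+SAMC. Spread within HFD was widest for this last gene, and its groups were still far apart.

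Nrf2 targets formed the other large block of lower genes. Of 36 tested, 6 passed the threshold, all lower in HFD than in Control+SAMC, among them Akr7a3, Ugt1a6, Gsta3, Gstp1 and Gstm1. The median log2 fold change of the list was -0.78, with 34 of 36 below 0 and 21 without overlap in the lower direction. Of all genes tested, 49.8% were below 0, 8.33% were without overlap and 0.22% passed in that direction. Gstp1, the pi class glutathione S-transferase, had the smallest adjusted p of all genes tested. It had 11.8, 12.99 and 11.1 CPM in HFD livers and 56.8, 52.0 and 53.7 CPM in Control+SAMC livers (log2 fold change -2.18 ± 0.13, adjusted p = 2.13e-05). Replicates of either group differed from each other by far less than the groups did.

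Akr7a3, an aldo-keto reductase that detoxifies aflatoxin dialdehyde in rat liver, had 32.9, 44.0 and 38.2 CPM in HFD livers and 527, 186 and 306 CPM in Control+SAMC livers (log2 fold change -3.15 ± 0.31, adjusted p = 0.0013). Gsta3, an alpha class transferase, had 31.1, 24.9 and 35.7 CPM in HFD livers and 232, 92.3 and 115 CPM in Control+SAMC livers (log2 fold change -2.26 ± 0.31, adjusted p = 0.0161). Ugt1a6, which glucuronidates planar phenols, had 21.3, 12.6 and 18.5 CPM in HFD livers and 170, 79.8 and 78.3 CPM in Control+SAMC livers (log2 fold change -2.65 ± 0.39, adjusted p = 0.0231). For these 3 genes Control+SAMC replicate 1 was the highest library, and the other 2 Control+SAMC libraries also lay above all HFD libraries.

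Gstm1, a mu class transferase of high abundance, had 380, 478 and 550 CPM in HFD livers and 1739, 1045 and 1231 CPM in Control+SAMC livers (log2 fold change -1.51 ± 0.25, adjusted p = 0.0281). Ugt1a6 shares its locus with the other Ugt1a genes, and transferases of 1 family resemble each other, so reads may be divided among them.

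Well-known targets of the same list did not pass. Nqo1, a quinone reductase, had 61.3, 93.6 and 98.5 CPM in HFD livers and 123, 105 and 129 CPM in Control+SAMC livers (log2 fold change -0.49 ± 0.34, adjusted p = 0.582). Hmox1, heme oxygenase, had a log2 fold change of -0.76 ± 0.51 (adjusted p = 0.570). Gclc and Gclm, the subunits of the enzyme that limits glutathione synthesis, had -0.59 ± 0.34 and -0.63 ± 0.39 with overlapping groups. Nfe2l2 itself had 0.29 ± 0.16 (adjusted p = 0.486). The aldo-keto reductase Akr1b8 had 1.64, 2.29 and 1.38 CPM in HFD livers and 47.5, 4.06 and 41.6 CPM in Control+SAMC livers, with Control+SAMC replicate 2 close to the HFD range (log2 fold change -4.12 ± 0.77, adjusted p = 0.0630).

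Of the 6 Nrf2 targets past the threshold, 3 remained without HFD replicate 2, 2 without HFD replicate 3, 5 without HFD replicate 4, 4 without Control+SAMC replicate 1, 3 without Control+SAMC replicate 2 and 5 without Control+SAMC replicate 3. All 6 remained when any HFD+SAMC or Control library was left out. With the low-fibrinogen libraries left out, 2 remained, Akr7a3 and Gstp1, and the median of the list was -0.53.

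Antioxidant response element cores, written as TGACNNNGC and searched on both strands, were present in 8 of the 30 promoters found for the 36 list members (26.7%), against 12.1% of all promoters in the table. The share was also 22.2% for the cholesterol list, 22.2% for the genes higher in HFD and 29.2% for the genes lower in HFD. Among the 5 promoters found for the 6 genes past the threshold, those of Gstp1 and Gsta3 held the core. Windows of 33 bases around it are shown because these genes passed the threshold and hold the core. Capitals mark the core, and sequences are RefSeq, GRCr8, read 5′ to 3′ on the gene's strand. The core starts 61 bases before the start site in Gstp1 and 17 bases before it in Gsta3. A match is a run of letters and does not show that a factor binds there.
Gstp1 (chr1:210769746-210769778, minus strand): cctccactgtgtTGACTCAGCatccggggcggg
Gsta3 (chr9:31154960-31154992, plus strand): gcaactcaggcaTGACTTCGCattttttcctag

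Glutathione S-transferases as a family gave 3 lower genes of 21 tested (Gsta3, Gstp1 and Gstm1), with a list median of -0.40 and 18 below 0. Of all genes tested, 0.22% passed in that direction and 49.8% were below 0. The same 3 genes are among the 6 Nrf2 targets counted above. Gstt3, a theta class member, had 156, 88.1 and 59.7 CPM in HFD livers and 1021, 483 and 311 CPM in Control+SAMC livers (log2 fold change -2.58 ± 0.49, adjusted p = 0.0556). Ugt1a6 alone passed among 15 genes tested of a list that names UDP-glucuronosyltransferases with Ugdh and Ugp2, which are not such transferases. The list median of -0.48 was the value of Ugdh. Ugt1a6 was also the only 1 of 10 genes of the aryl hydrocarbon receptor (AhR) pathway to pass. Cyp1a2, a cytochrome P450 under AhR control, had 685, 472 and 827 CPM in HFD livers and 955, 1555 and 1019 CPM in Control+SAMC livers (log2 fold change -0.83 ± 0.23, adjusted p = 0.150), without overlap. Cyp1a1 had -2.87 ± 1.32 (adjusted p = 0.397) and Ahr -0.47 ± 0.46 (adjusted p = 0.730).

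In the one-carbon pathway, Aldh1l1, the cytosolic formyltetrahydrofolate dehydrogenase that also yields NADPH, had 142, 99.1 and 95.0 CPM in HFD livers and 375, 345 and 241 CPM in Control+SAMC livers (log2 fold change -1.52 ± 0.27, adjusted p = 0.0432). The call was lost without HFD replicate 2, 3 or 4, Control+SAMC replicate 1 or 2, HFD+SAMC replicate 1 or 2, or Control replicate 3, with adjusted p between 0.0521 and 0.168. Of the 11 genes of NADPH supply tested, a list without Aldh1l1, 1 passed, lower in HFD, and their median was -0.15.

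Among the genes higher in HFD livers, Acnat2 led in size within the rule for named genes. It encodes a peroxisomal enzyme related to those that join acyl groups to amino acids. HFD livers had 4.78, 7.02 and 6.85 CPM, against 0.739, 0.475 and 0.818 CPM in Control+SAMC livers (log2 fold change 3.19 ± 0.31, adjusted p = 0.0013), 9.14 times higher in HFD. Sult1c2, a cytosolic sulfotransferase, had 16.9, 17.6 and 10.6 CPM in HFD livers and 1.88, 1.04 and 3.17 CPM in Control+SAMC livers (log2 fold change 2.88 ± 0.42, adjusted p = 0.0161). A long intergenic RNA on the same stretch of chromosome 9, listed without a symbol, passed as well. Sult1c2 lost its call without HFD replicate 2 or 3 or Control+SAMC replicate 1 or 2, with adjusted p between 0.0551 and 0.0781. Of the 7 alternative settings other than leaving out 1 library, 6 kept the call of Sult1c2. It alone passed among 11 genes tested of a list that names sulfotransferases with Papss1 and Papss2, which are not sulfotransferases.

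Cyp3a18, a cytochrome P450 of the 3A subfamily, had 21.0, 21.3 and 13.6 CPM in HFD livers and 3.04, 4.04 and 3.27 CPM in Control+SAMC livers (log2 fold change 2.43 ± 0.41, adjusted p = 0.0358). Of 29 genes of the nuclear receptors CAR and PXR and of drug-metabolising cytochromes P450, no other passed, and the median was 0.12. Paqr7, a membrane progestin receptor, had 126, 154 and 47.2 CPM in HFD livers and 22.5, 17.5 and 15.1 CPM in Control+SAMC livers (log2 fold change 2.57 ± 0.40, adjusted p = 0.0306). HFD replicate 4 was the lowest HFD library for both genes and still above the other group. Both lost their calls without HFD replicate 2 or 3 or any Control+SAMC library (adjusted p between 0.0818 and 0.134), Cyp3a18 also without HFD+SAMC replicate 1 (0.0662) and Paqr7 without HFD+SAMC replicate 2 (0.0576). Of the 7 alternative settings other than leaving out 1 library, 4 kept the call of Cyp3a18 and 4 that of Paqr7.

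Fabp7, a fatty acid binding protein better known from brain, had 44.4, 39.8 and 27.6 CPM in HFD livers and 7.64, 9.83 and 8.24 CPM in Control+SAMC livers (log2 fold change 2.12 ± 0.30, adjusted p = 0.0161). Pcdh7, a protocadherin of cell adhesion, had 17.1, 9.47 and 4.42 CPM in HFD livers and 1.54, 1.08 and 1.68 CPM in Control+SAMC livers (log2 fold change 2.85 ± 0.50, adjusted p = 0.0439). Slc25a34, a mitochondrial carrier, had a log2 fold change of 1.80 ± 0.34 (adjusted p = 0.0495), and Tmem179 one of 2.41 ± 0.40 (adjusted p = 0.0338). Fabp7 kept its call without HFD replicate 4 and without any HFD+SAMC or Control library, and lost it without each of the other 5 (adjusted p between 0.0551 and 0.0751). Pcdh7, Slc25a34 and Tmem179 each lost theirs without HFD replicate 2 or 3 or any single Control+SAMC or HFD+SAMC library, and Slc25a34 also without Control replicate 3 (0.0829). Of the 7 alternative settings other than leaving out 1 library, 6 kept the calls of Fabp7 and Tmem179. For Pcdh7 and Slc25a34, 4 did.

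Il4r, Qprt, Josd2 and Tmem125 were also higher in HFD. Il4r, a receptor subunit for interleukins 4 and 13, had 164, 179 and 144 CPM in HFD livers and 94.1, 95.0 and 97.0 CPM in Control+SAMC livers (log2 fold change 0.77 ± 0.13, adjusted p = 0.0306). Qprt, which carries quinolinate from tryptophan breakdown into NAD synthesis, had 129, 136 and 92.0 CPM in HFD livers and 67.4, 55.1 and 60.6 CPM in Control+SAMC livers (log2 fold change 0.96 ± 0.17, adjusted p = 0.0358); a long noncoding RNA with far fewer counts overlaps it on the other strand. Josd2, a deubiquitinase, had a log2 fold change of 0.69 ± 0.12 (adjusted p = 0.0439). Tmem125 had 34.8, 46.8 and 40.3 CPM in HFD livers and 10.7, 8.17 and 20.5 CPM in Control+SAMC livers (log2 fold change 1.63 ± 0.28, adjusted p = 0.0380). Each of these 4 lost its call without HFD replicate 2 or 3, Control+SAMC replicate 1 or 2, or any HFD+SAMC library. Il4r and Qprt lost it also without Control+SAMC replicate 3, and Josd2 and Tmem125 without HFD replicate 4 or Control replicate 3. The highest adjusted p over these fits was 0.139, for Qprt. Of the 7 alternative settings other than leaving out 1 library, 5 kept the call of Qprt and 3 that of Josd2. For Il4r and Tmem125, 4 did.

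PPARα targets and fatty acid oxidation genes were mostly above 0, with 1 past the threshold. That was Vnn1, the pantetheinase vanin 1, whose transcription responds to PPARα. HFD livers had 102, 108 and 93.4 CPM and Control+SAMC livers had 29.4, 32.9 and 32.2 CPM (log2 fold change 1.68 ± 0.23, adjusted p = 0.0161). The list of 48 had a median of 0.41, with 42 above 0, against 50.2% of all genes. Without overlap in the higher direction were 24, against 8.8% of all genes. Acot1, a cytosolic acyl-CoA thioesterase, had 91.5, 151 and 14.4 CPM in HFD livers and 1.58, 2.03 and 2.64 CPM in Control+SAMC livers (log2 fold change 5.36 ± 1.15, adjusted p = 0.0986). HFD replicate 4 was far below the other HFD libraries and still above the Control+SAMC range. Acot4, its peroxisomal relative, had 1.10 ± 0.27 (adjusted p = 0.117), and Bdh1, a ketone body dehydrogenase, 0.88 ± 0.20 (adjusted p = 0.0937). Cpt1a, which admits fatty acids to mitochondria, had overlapping groups, at 402, 518 and 763 CPM in HFD and 303, 334 and 724 CPM in Control+SAMC (log2 fold change 0.31 ± 0.51, adjusted p = 0.864). Vnn1 missed the threshold without HFD replicate 2 (adjusted p = 0.0597), HFD replicate 3 (0.0595), Control+SAMC replicate 1 (0.0559) or Control+SAMC replicate 2 (0.0551), and with the low-fibrinogen libraries left out (0.403).

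**Figure D3:**
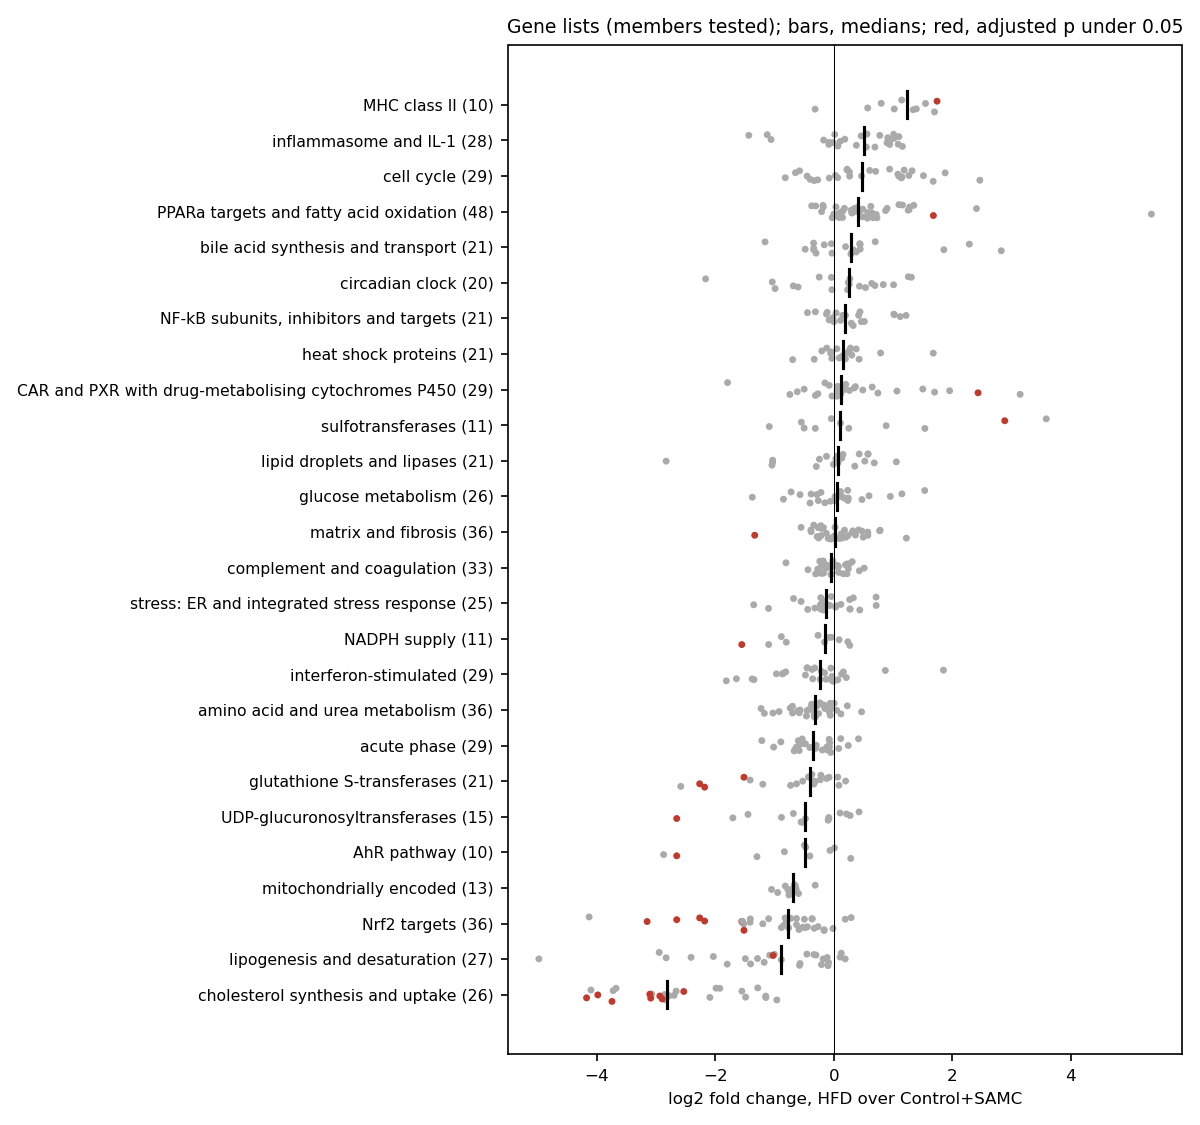
Log2 fold change of HFD over Control+SAMC for each member of 26 gene lists, sorted by the list median, with red points for genes past an adjusted p of 0.05. Cholesterol synthesis and uptake lies at one end with a median of -2.81, and MHC class II at the other with 1.24.

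Class II antigen presentation had the highest list median, 1.24 over 10 genes, with 9 above 0, 5 without overlap in the higher direction and 1 past the threshold. Of all genes tested, 50.2% were above 0, 8.8% were without overlap and 0.145% passed in that direction. RT1-Da, an alpha chain of the rat class II molecule, had 136, 111 and 105 CPM in HFD livers and 29.1, 46.0 and 29.8 CPM in Control+SAMC livers (log2 fold change 1.74 ± 0.30, adjusted p = 0.0432). Cd74, the invariant chain, had 366, 288 and 327 CPM in HFD livers and 97.8, 180 and 95.3 CPM in Control+SAMC livers (log2 fold change 1.39 ± 0.31, adjusted p = 0.0883). Ciita, the master activator of class II transcription, had 8.14, 6.06 and 8.42 CPM in HFD livers and 2.28, 3.80 and 1.66 CPM in Control+SAMC livers (log2 fold change 1.55 ± 0.34, adjusted p = 0.0878). Control+SAMC replicate 2 was the highest of its group for all 3 genes and stayed below HFD. RT1-Da lost its call without any of the 6 libraries compared (adjusted p between 0.0568 and 0.143) and without HFD+SAMC replicate 3 (0.0716), and it had an adjusted p of 0.636 with the low-fibrinogen libraries left out. Class II genes of the RT1 locus resemble each other, which makes their counts uncertain.

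Markers of macrophages and of T and NK cells lay higher with these genes. The 17 Kupffer cell and macrophage markers summed to 1090 to 1345 CPM in HFD livers and 792 to 1021 CPM in Control+SAMC livers. They summed to 915 to 1096 CPM in HFD+SAMC and 659 to 1096 CPM in Control livers, which reach into the HFD range. All 17 had a fold change above 0 (median 0.46), against 50.2% of all genes, and none passed the threshold. Aif1, a macrophage protein, came closest, with 17.6, 22.6 and 11.5 CPM in HFD livers and 5.17, 5.27 and 6.54 CPM in Control+SAMC livers (log2 fold change 1.60 ± 0.31, adjusted p = 0.0517). T and NK cell markers summed to 49.0 to 72.9 CPM in HFD and 33.4 to 48.5 CPM in Control+SAMC, and 12 of 13 tested were above 0. B and plasma cell markers summed to 7.09 to 10.6 CPM in HFD and 6.03 to 7.15 CPM in Control+SAMC. Neutrophil markers summed to 18.0 to 19.0 CPM in HFD and 7.85 to 16.7 CPM in Control+SAMC, but 2 of the 6 tested were above 0 and 4 below, with a median of -0.83; Ncf1 and Fcgr3a were higher in every HFD library, S100a8, S100a9, Csf3r and Cxcr2 had fold changes between -1.81 and -0.45, and Ltf was at 0. The part of these cells in the class II values was not tested.

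The series is about inflammatory signalling beside drug metabolism, and none of its named regulators passed. Nlrp3, the inflammasome sensor, had 7.11, 8.26 and 3.67 CPM in HFD livers and 3.80, 3.54 and 2.86 CPM in Control+SAMC livers, with HFD replicate 4 inside the Control+SAMC range (log2 fold change 0.90 ± 0.27, adjusted p = 0.177). Nfkb1, a subunit of NF-κB, had 0.11 ± 0.12 (adjusted p = 0.736), Rela had -0.11 ± 0.15 (adjusted p = 0.814) and Nfkbia, their inhibitor, 0.42 ± 0.25 (adjusted p = 0.503). Il1b, the cytokine that inflammasomes process, had 10.04, 10.3 and 8.18 CPM in HFD livers and 5.07, 4.36 and 4.68 CPM in Control+SAMC livers without overlap (log2 fold change 1.02 ± 0.28, adjusted p = 0.150). Of 28 inflammasome and IL-1 genes, 20 were above 0 and 9 were without overlap in the higher direction, with a median of 0.51. The shares of all genes were 50.2% above 0 and 8.8% without overlap in that direction. The list of 21 NF-κB genes had a median of 0.20. Nlrp6, a sensor best known from the gut, did not pass the filter on low counts.

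Prom1 and Dpt were lower in HFD livers. Prom1, the surface protein CD133 that marks bile duct and progenitor cells, had 6.50, 3.10 and 6.75 CPM in HFD livers and 31.0, 20.1 and 31.1 CPM in Control+SAMC livers (log2 fold change -2.33 ± 0.33, adjusted p = 0.0161). It was the only 1 of the cholangiocyte markers to pass, and these markers together summed to 28.2 to 40.0 CPM in HFD and 60.0 to 70.8 CPM in Control+SAMC. Without Prom1 the other 9 summed to 25.1 to 33.2 CPM in HFD and 38.3 to 39.9 CPM in Control+SAMC. Over the 9 tested, Prom1 included, the median log2 fold change was -0.21. Of these, 8 were below 0, against 49.8% of all genes, and Cftr was at 1.64 ± 0.95 (adjusted p = 0.498). Krt19, Epcam and Spp1 had fold changes between -0.98 and -0.76, without overlap and without passing, and the remaining 4 lay between -0.21 and -0.09; how far cell numbers enter the value of Prom1 was not tested. Prom1 missed the threshold without HFD replicate 2 (adjusted p = 0.0751), HFD replicate 3 (0.0527) or Control+SAMC replicate 1 (0.0564). Its call was also lost with the low-fibrinogen libraries left out, a fit that keeps a lone HFD library. Dpt, the matrix protein dermatopontin, had 101, 65.1 and 120 CPM in HFD livers and 251, 201 and 269 CPM in Control+SAMC livers (log2 fold change -1.33 ± 0.25, adjusted p = 0.0458). It was the only 1 of 36 matrix genes to pass, with a list median of 0.02. When single libraries were left out, its call held only without HFD replicate 4, Control replicate 1 or Control replicate 2. Of the 7 alternative settings other than leaving out 1 library, 4 kept the call of Dpt. Stellate cell and fibroblast markers summed to 284 to 411 CPM in HFD and 254 to 374 CPM in Control+SAMC.

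The other 6 libraries held a comparison in which diet and SAMC again differ at once, but on the same side. Between HFD+SAMC and Control livers, 28 of 15916 genes (0.176%) passed the threshold, 0.101% higher and 0.0754% lower. HFD+SAMC replicate 3 stood apart by skeletal muscle RNA, with 1304 CPM summed over 12 muscle markers against 0.838 to 1.95 CPM in the other 11 libraries, and 440 CPM of the actin gene Acta1. None of the muscle markers was among the 28 genes. Without that library 13 genes passed, 12 of them among the 28; without HFD+SAMC replicate 2 it was 13, without Control replicate 3 it was 7, and without Control replicate 1 it was 53. Of the 58 genes found above, 6 (10.3%) passed there: Vnn1 and Prom1 in the direction they had in HFD against Control+SAMC, and Akr7a3, Gstm1, Gstp1 and Mrps27 in the opposite direction. Of all 58, 37 had the same sign in both comparisons and 21 the opposite sign. Among the 23 higher genes 1 passed, and among the 35 lower genes 5 did. Because both comparisons use the same estimate of the spread, the 10.3% is not independent of how the 58 were chosen. The share of all genes with the same sign in both is not given here.

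Vnn1 was high in both groups on the high fat diet. HFD+SAMC livers had 189, 104 and 114 CPM and Control livers had 49.4, 35.8 and 30.2 CPM (log2 fold change 1.82 ± 0.23, adjusted p = 0.0075). Prom1 was low in both, with 9.22, 11.5 and 7.80 CPM in HFD+SAMC livers and 34.2, 64.9 and 47.9 CPM in Control livers (log2 fold change -2.36 ± 0.33, adjusted p = 0.0161). Groups did not overlap for either gene. In this second comparison Prom1 missed the threshold without any HFD+SAMC library or Control replicate 3 (adjusted p between 0.0641 and 0.0952), and Vnn1 missed it without Control replicate 3 (0.0708), in the fit on the 6 libraries of HFD+SAMC and Control alone (0.0925) and with the low-fibrinogen libraries left out (0.0973).

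Akr7a3 had 167, 167 and 156 CPM in HFD+SAMC livers and 22.0, 20.5 and 17.3 CPM in Control livers (log2 fold change 3.04 ± 0.31, adjusted p = 0.0019). Gstp1 had 36.2, 27.8 and 28.5 CPM in HFD+SAMC livers and 14.4, 13.7 and 12.1 CPM in Control livers (log2 fold change 1.20 ± 0.13, adjusted p = 0.0021). Gstm1 had 1067, 1729 and 1084 CPM in HFD+SAMC livers and 356, 310 and 363 CPM in Control livers (log2 fold change 1.92 ± 0.25, adjusted p = 0.0082). These 3 transcripts were high in both groups given SAMC and low in both groups without it. Akr7a3 and Gstp1 kept this call in all 19 alternative settings, and Gstm1 lost it without Control replicate 3 (0.0708). Mrps27, a protein of the mitochondrial ribosome that falls outside the rule for named genes and was chosen after its values were seen, had 24.6, 25.4 and 27.8 CPM in HFD+SAMC livers and 15.4, 17.3 and 15.8 CPM in Control livers (log2 fold change 0.68 ± 0.12, adjusted p = 0.0493); this call was kept in 4 of the 19 alternative settings only, and lost in the others with adjusted p up to 0.217, among them each fit without 1 HFD+SAMC or Control library. In the first comparison Mrps27 had -0.76 ± 0.12 (adjusted p = 0.0214), lost without HFD replicate 2, 3 or 4 or Control+SAMC replicate 1 or 2 (adjusted p between 0.0527 and 0.132), in the fit on the 6 libraries compared (0.0912), with the replicate block (0.109) and without the low-fibrinogen libraries (0.222). Gsta3 and Ugt1a6 had 1.74 ± 0.31 (adjusted p = 0.0536) and 2.05 ± 0.39 (adjusted p = 0.0670) in HFD+SAMC against Control.

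**Figure D4:**
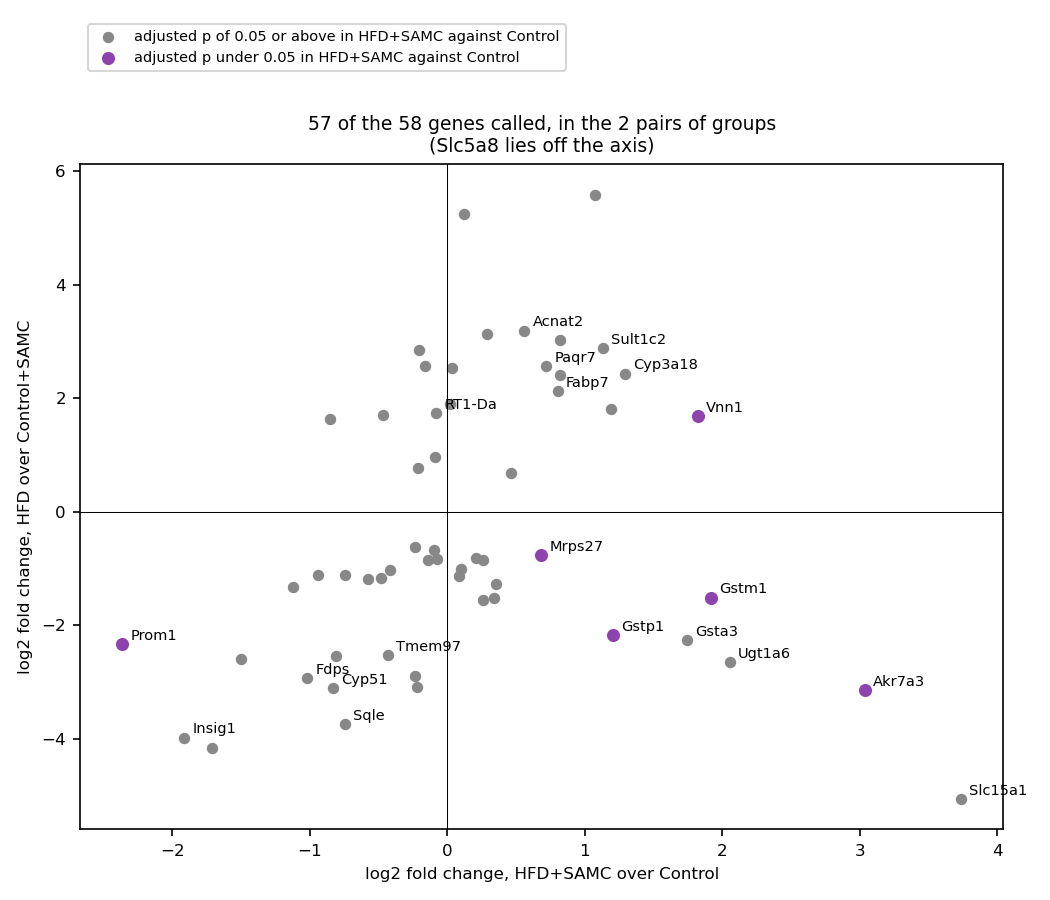
Log2 fold change of HFD over Control+SAMC (vertical axis) against that of HFD+SAMC over Control (horizontal axis) for 57 of the 58 genes; purple points also pass in HFD+SAMC against Control, and Slc5a8, which has no count in Control+SAMC, is not drawn. Nrf2 targets such as Akr7a3, Gstm1 and Gstp1 lie at the lower right, Prom1 at the lower left and Vnn1 at the upper right.

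Cholesterol genes gave smaller values in that second comparison, with none of the 8 past the threshold. Insig1 had -1.91 ± 0.62 (adjusted p = 0.248) in HFD+SAMC against Control, where Tmem97 had -0.43 ± 0.19 (adjusted p = 0.377). The list median was -0.75. Whether the 2 comparisons differ for these genes was not tested. Tmem97 stood at 45.1, 52.3 and 55.1 CPM in HFD+SAMC livers and 50.004, 91.2 and 64.7 CPM in Control livers, between the HFD and the Control+SAMC libraries in every case.

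Against the Control livers, which both comparisons below share, the 2 sides of HFD against Control+SAMC can be set side by side as values. The cholesterol list had a median log2 fold change of -1.99 in HFD over Control and 0.60 in Control+SAMC over Control. The Nrf2 list had medians of 0.14 in HFD over Control and 0.97 in Control+SAMC over Control. For Gstp1 these values were -0.16 ± 0.13 and 2.02 ± 0.13, and for Akr7a3 0.94 ± 0.29 and 4.09 ± 0.32. Insig1 had -3.22 ± 0.65 and 0.76 ± 0.60, and Tmem125 had 0.05 ± 0.27 and -1.58 ± 0.28. Over the 58 genes, the Control mean lay between the other 2 means but nearer that of Control+SAMC for 31, nearer that of HFD for 17, and outside both for 10. Among the higher genes the count nearer each side was 11 and 11, with 1 outside, and among the lower genes 20 lay nearer Control+SAMC, 6 nearer HFD and 9 outside. The HFD+SAMC mean lay nearer Control+SAMC for 29, nearer HFD for 25 and outside for 4. These positions use group means of 3 libraries, and for cholesterol genes Control replicate 2 raised the Control mean. Sqle had 24.6, 148 and 40.3 CPM and Insig1 81.4, 536 and 93.9 CPM in Control replicates 1, 2 and 3. How the counts change without that library was not tested. The 58 genes were also chosen by the gap between HFD and Control+SAMC.

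**Figure D5:**
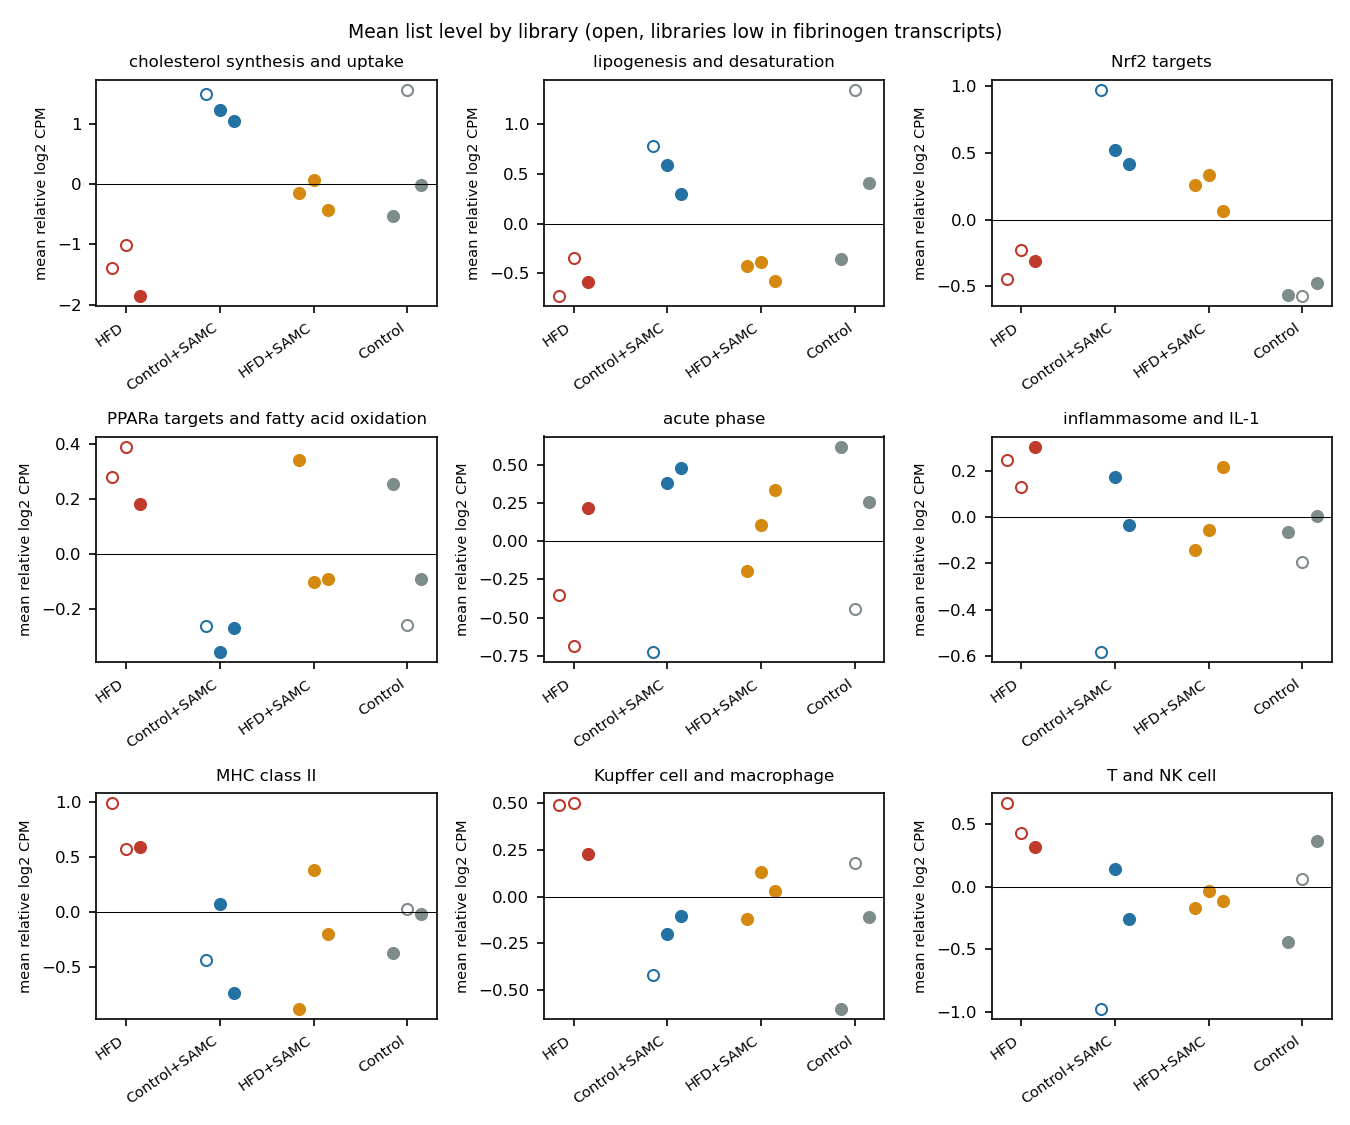
Mean log2 CPM of list members relative to the mean over all 12 libraries, by library, for 9 gene lists; groups run HFD, Control+SAMC, HFD+SAMC and Control, and open points are the low-fibrinogen libraries. For cholesterol genes all HFD libraries lie at -1.02 or below, and the Control libraries spread more widely than those of any other group.

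Of the lists not described so far, none had a gene past the threshold. Medians were 0.29 for 21 bile acid genes, 0.06 for 21 lipid droplet and lipase genes and 0.06 for 26 glucose genes. The median was -0.32 for 36 genes of amino acid and urea metabolism, of which 31 were below 0, against 49.8% of all genes. Cyp7a1, the rate-limiting enzyme of bile acid synthesis, had 133, 221 and 98.3 CPM in HFD livers and 393, 384 and 233 CPM in Control+SAMC livers, without overlap (log2 fold change -1.16 ± 0.67, adjusted p = 0.503). Acute phase genes had a median of -0.35, complement and coagulation genes -0.04, interferon-stimulated genes -0.23, genes of the ER stress response -0.13, heat shock genes 0.16, clock genes 0.25 and cell cycle genes 0.47. All 13 mitochondrially encoded transcripts were below 0, 12 without overlap (8.33% of all genes in that direction), with a median of -0.68. Mitochondrial transcripts took 4.14%, 1.73% and 3.90% of counts in HFD livers and 5.36%, 4.10% and 4.44% in Control+SAMC livers.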

How the data were processed

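Liver RNA of 12 rat samples in 4 groups of 3 was taken by its treatment labels. Per the labels' protocols, total RNA was depleted of ribosomal RNA, read in pairs on an Illumina instrument, aligned with HISAT2 and counted per gene with HTSeq by the authors; reads were trimmed with Trimmomatic 0.36, per the submitters' processing notes. No source used here gives the genome build, annotation or strand setting. The deposited count per gene is raw. The deposited RPKM equalled count over length and library total within 1e-06 for all but 1 gene and was not tested. The authors' DESeq results are not analysed here.

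Of 40154 genes, 14180 had no count and filterByExpr kept 15916 (99.96% of counts). All 12 libraries entered 1 robust quasi-likelihood fit in edgeR 4.0.16 (R 4.3.3; TMM scaling; 8 residual degrees of freedom; biological coefficient of variation 0.299). Tests were two-sided and adjusted by Benjamini-Hochberg over all genes tested, with a threshold of 0.05. CPM uses TMM-scaled totals, log2 fold changes are given ± SE, and CPM is compared within a gene only, since it is not per length. Total counts ran between 45680738 and 61937544, and SEs carry counting error and library spread. The fit was tested on simulated data. Library pairs within HFD and within Control+SAMC differed beyond sampling noise (chi-square per degree of freedom 134 to 270). Gene lists were described by counts and medians. Alternatives were other scalings, no filter on low counts, DESeq2 1.42.0, the 6 libraries alone, a replicate block, each library left out, and the 4 low-fibrinogen libraries left out. The members and lists were chosen with earlier results of these data known. Genes named were the 15 largest changes each way among genes that passed, where the mean log2 CPM was 1 or more, the symbol established and the groups without overlap, up to 4 members of each list by unadjusted p, the regulators in the series title, and Cyp1a1, Cyp1a2, Nqo1, Hmox1, Fga and Alb; other genes named were chosen after their values were seen. Results for some genes are not reported here.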

Additional observations from a re-analysis of the deposited data

How the results depend on the processing

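Counts of genes past the threshold in HFD against Control+SAMC changed most with the tool and the libraries. DESeq2's Wald test called 556 genes, 278 higher and 278 lower, among them all 58, and 74 in HFD+SAMC against Control among its own. Without the 4 low-fibrinogen libraries 31 genes passed, 8 higher and 23 lower, with 3 of them past the threshold in HFD+SAMC against Control, where the 12-library fit had 6 of 58. Leaving out 1 library gave between 5 and 140 genes, between 2 and 51 higher, between 3 and 89 lower, and between 2 and 9 in the second comparison. Groups of the comparison share only the numbers 2 and 3, whose deviations correlated at -0.068 and -0.035. Pairs with unlike numbers ran between -0.274 and 0.209, so these values cannot show whether a shared number means a shared batch or pairing. With the replicate number as a block 41 genes passed, 18 of them lower, and 21 of the 58 remained. DESeq2 size factors gave 55, upper quartile scaling 60, no filter 57 and the 6 libraries alone 77. Rela, at -0.11 in the 12-library fit, lay between -0.20 and 0.0070 when 1 library was left out, the highest without Control+SAMC replicate 3, and turned to 0.0087 without the low-fibrinogen libraries; no other fold change of a named gene reversed. The cause was not tested. The number of libraries, 3 a group, and their spread limit the precision of every value.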

Other observations

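Genes that the naming rule left out, chosen here after their values were seen, include several transporters. Slc5a8, a sodium-coupled carrier of short-chain acids, had 127, 91 and 43 counts in HFD livers and none in the Control+SAMC livers, at least 24.0-fold higher against a floor of 3 counts per library; its call (adjusted p = 0.0495) was lost without any library compared or any HFD+SAMC library (adjusted p between 0.0614 and 0.142). Slc15a1, a peptide transporter of the gut, went the other way, with 1, 5 and 0 counts in HFD livers and 89, 32 and 50 counts in Control+SAMC livers (adjusted p = 0.0432); its call was lost without any HFD, Control+SAMC or HFD+SAMC library (adjusted p between 0.0679 and 0.162). Slc20a1, a phosphate carrier, had 26.2 ± 1.86 CPM in HFD livers and 52.5 ± 6.63 CPM in Control+SAMC livers (SD, n = 3 each; adjusted p = 0.0268). Slc39a4, a zinc importer, had 20.3 ± 2.07 CPM in HFD and 44.6 ± 8.48 CPM in Control+SAMC (adjusted p = 0.0312), and Flvcr1, a heme exporter, 1.20 ± 0.0572 CPM in HFD and 2.74 ± 0.269 CPM in Control+SAMC (adjusted p = 0.0439). Apex1, an endonuclease of base excision repair, had 17.7 ± 0.367 CPM in HFD and 31.8 ± 2.06 CPM in Control+SAMC (adjusted p = 0.0380), and Axin2, a target and brake of Wnt signalling, 13.5 ± 0.621 CPM in HFD and 20.9 ± 2.36 CPM in Control+SAMC (adjusted p = 0.0495). Each of these 5 lost its call without HFD replicate 2, 3 or 4, Control+SAMC replicate 2 or HFD+SAMC replicate 1. With 1 library left out, the highest adjusted p was 0.169, for Axin2 without HFD replicate 2. All but Slc20a1 lost the call also without Control+SAMC replicate 1 or HFD+SAMC replicate 2, and all but Axin2 without Control+SAMC replicate 3. Flvcr1, Apex1 and Axin2 lost it also without HFD+SAMC replicate 3 or Control replicate 3. Of the 7 alternative settings other than leaving out 1 library, 1 kept the call of Axin2 and 3 that of Flvcr1. For Slc20a1, Slc39a4 and Apex1, 5 did, and for Slc5a8 and Slc15a1, 4 did.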
